A study of Mus musculus with 8 samples.

Results

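Enteroendocrine cells are the hormone cells of the gut epithelium, and 10 genes that encode their hormones or make serotonin are described here: Gcg, Pyy, Nts, Cck, Gip, Sct, Ghrl, Sst, Tac1 and Tph1. They were picked by name as products of this lineage, and every probe that the platform annotation assigns to one of them was taken. All 10 were measured, by 12 probes of the 38467 in the table, with 2 probes each for Nts and Ghrl and 1 for each of the others. The named probes of the table cover 15123 genes.

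The tested tissue was ileum of LGR5-/- mouse embryos, set against ileum of LGR5 +/+ embryos at embryonic day E18.5 (E18.5 to E19 in the design text), all from LGR5+/- couples. LGR5, a Wnt pathway receptor, sits on intestinal stem cells, and the study's title concerns cell lineage differentiation without it. Each of 4 pairs, 1 null and 1 wild-type embryo, was hybridised to 2 two-colour arrays of 70-base oligonucleotides with the dyes exchanged, 8 arrays in all. The 4 pairs came from 3 couples, so some share parents, but the labels do not say which, and they do not describe how the null allele was made.

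Every value below is a deposited log ratio of null over wild type, read as log2 because the base is not stated, with the 2 arrays of a pair averaged. The numerator is not stated either. Null over wild type is the likely direction, taken from Lgr5, which lay below 0 on all 8 arrays, at -1.61, -0.92, -1.92 and -1.93 in pairs 1 to 4. The arrays give ratios with no spot intensities, so the level of a hormone RNA, or whether it rose above background, cannot be stated. For the same reason the tissue label could not be checked against the levels of its marker genes. In whole ileum, fewer hormone cells and less hormone RNA per cell cannot be told apart.

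Hormone cells arise from epithelial progenitors of the secretory lineage, in mouse through the transcription factor Neurog3, and they are few and scattered. Classically each type was assigned a main product. These were Gcg and Pyy for L cells, Gip for K cells, Cck for I cells and Sct for S cells. For D cells it was Sst, for X cells Ghrl and for enterochromaffin cells serotonin. Many cells express several of these hormones, and the mix changes along the gut, with Cck, Gip and Sct typical of the upper small intestine and Gcg, Pyy and Nts of its lower end.

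No hormone gene passed when null was tested against wild type. Of the 12 probes 0 had an adjusted p under 0.05 (limma, 4 pairs, adjusted over 36591 probes), and over all probes 0% passed. Lgr5, the targeted gene, did not pass either, at -1.59 ± 0.47 (SD, n = 4; limma adjusted p = 0.656 over genes). A count of 0 therefore does not show that the hormone genes were unchanged. At an unadjusted p under 0.05 there were 2 of 12, where 5.47% of all probes reached that level: Sst lay below 0, as did 3.15% of all probes at that level, and Tph1 above 0, as did 2.33%. In a fit of all 8 arrays with a random effect for the pair the count was again 0 of 12, beside 0.23% of all probes, or 0.0328% with a dye term added after seeing the data. The gene means lay above 0 for 4 of the 10 genes and below 0 for 6, with a median of -0.0064, beside 50.0% above 0 and a median of 0.000042 over all 15123 genes. The hormone genes did vary between the pairs. Of the 12 probes 9 differed between pairs by more than the error between the 2 arrays of a pair (limma moderated F-test, adjusted p under 0.05), where 22.9% of all probes did. Because that error is purely technical, embryos that merely differ from one another can pass, and the test does not speak to genotype. Counted by gene, 8 of the 10 passed, beside 30.9% of all genes. High shares were also found in other lists taken up further on. They were 88.9% of exocrine pancreas, 66.7% of enteric neuron and 64.3% of gut epithelium markers, but 15% of hormone receptors and 0% of stomach markers. The median SD between pairs was 0.32 for the 10 genes and 0.098 for all genes.

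**Figure D1:**
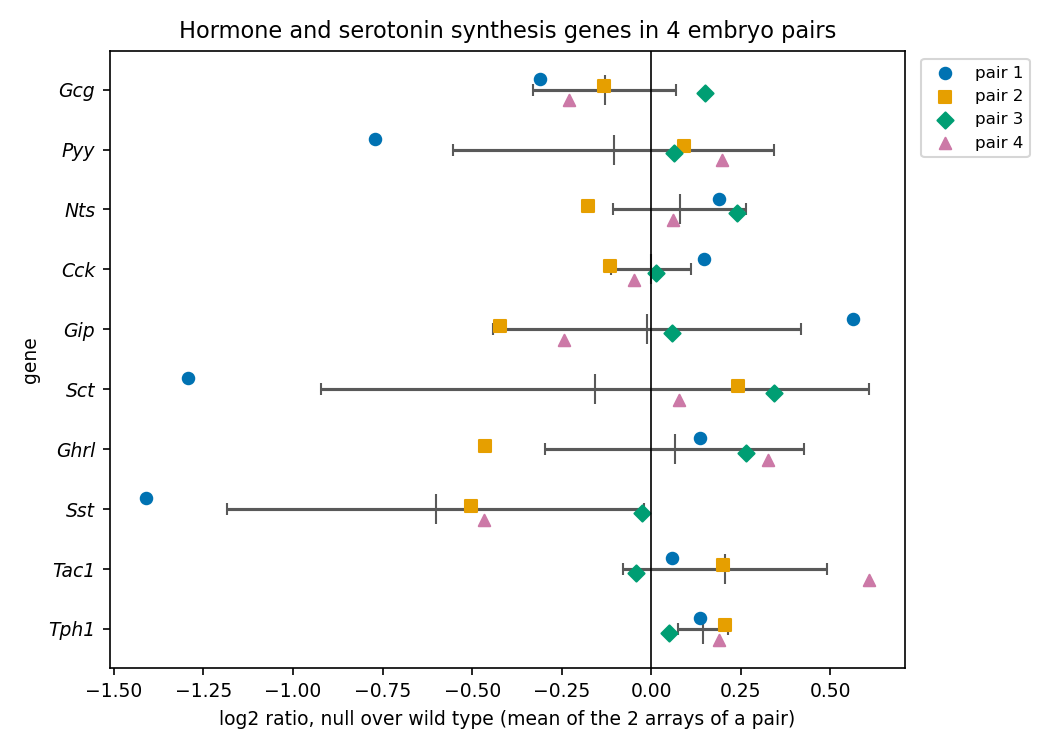
Log2 ratio of null over wild type (horizontal axis) for each of the 10 genes (vertical axis), 1 coloured symbol per embryo pair, with the mean (tick) and SD over 4 pairs (bar). Sst is the only one of the 10 genes with every pair below 0 and Tph1 the only one with every pair above 0, while pair 1 lies far to the left for Sst, Sct and Pyy and to the right for Gip.

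Sst encodes somatostatin, the peptide of D cells that restrains the release of other gut hormones, and it had the lowest mean of the 10 genes. Pairs 1 to 4 gave ratios of -1.41, -0.50, -0.0255 and -0.47. All 4 were below 0, but pair 3 was close to 0, with 0.011 and -0.062 on its 2 arrays. The mean was -0.60 ± 0.58 (SD, n = 4), a fold of 0.659, with a 95% interval of -1.18 to -0.022 and an unadjusted p = 0.0444. Adjusted over all probes it did not pass (limma adjusted p = 0.867). Pair 1 stood lowest, at 0.376 of the wild-type level, and without it the mean was -0.33 ± 0.27 (SD, n = 3). In 7 of 8 arrays the ratio was below 0. In each of the 4 pairs the array with the null sample in Cy3 gave the lower Sst ratio, by 0.30 on average, a dye difference with an unadjusted p = 0.00945 and a limma adjusted p = 0.104. In pair 1 the arrays gave -1.15 with the null sample in Cy5 and -1.67 with it in Cy3, so both orientations were low there. Sst is also made by enteric neurons and by the pancreas, whose markers are given further on.

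Sct, Pyy and Gip were farthest from 0 in pair 1. Sct encodes secretin, the S cell hormone that drives bicarbonate secretion. Its ratios were -1.29 in pair 1 and 0.24, 0.34 and 0.076 in pairs 2, 3 and 4. Pair 1 was thus at 0.408 of the wild-type level and the other 3 above it, with no overlap. Both arrays of pair 1 were low, at -1.22 and -1.37. The mean of -0.16 ± 0.77 (SD, n = 4) had an interval of -0.92 to 0.60 (limma adjusted p = 0.934) and turned to 0.22 ± 0.14 (SD, n = 3) without pair 1. Only 1.09% of all genes had a larger range between pairs.

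Pyy encodes peptide YY, an L cell hormone that slows gut transit and curbs appetite. It followed the same order as Sct in that pair 1 alone was below 0, at -0.77, against 0.0905, 0.0635 and 0.20 in pairs 2, 3 and 4. The mean was -0.10 ± 0.45 (SD, n = 4; limma adjusted p = 0.924), and 0.12 ± 0.071 (SD, n = 3) without pair 1. Gcg encodes proglucagon, from which L cells cut GLP-1 and GLP-2. It lay at -0.31, -0.13, 0.15 and -0.23, below 0 in 3 pairs and by less than Pyy in pair 1. Its mean was -0.13 ± 0.20 (SD, n = 4; limma adjusted p = 0.867).

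Gip encodes the K cell incretin that augments insulin release after a meal, and in pair 1 it pointed the other way. In pairs 1 to 4 its ratios were 0.56, -0.42, 0.057 and -0.245, and the mean was -0.012 ± 0.43 (SD, n = 4; limma adjusted p = 0.992). The 2 arrays of pair 1 gave 0.71 and 0.42. In pair 1 Gip therefore stood 1.86 above Sct, 1.97 above Sst and 1.33 above Pyy on the log2 scale, whereas in pairs 2, 3 and 4 it stood below Sct and Pyy. It stayed above Sst in those pairs, by 0.083 to 0.22. In pair 1, 4 of the 10 genes lay more than 0.5 from 0, and 5.21% of all genes did.

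The upstream sequence of these 4 genes is shown because they were the ones farthest from 0 in pair 1, Sct, Sst and Pyy below it and Gip above. Each line gives the 250 bases before an annotated start, the only one in the table for Sct, Sst and Gip and 1 of 2 for Pyy, 5′ to 3′ on the gene's strand, from RefSeq on mouse assembly GRCm38.p6. Capitals mark an E-box, CANNTG, the core that basic helix-loop-helix factors such as Neurog3 and Neurod1 bind, and the cAMP response element TGACGTCA, which reads the same on both strands, as CANNTG does.
Sct, chr7:141279134-141279383, strand -: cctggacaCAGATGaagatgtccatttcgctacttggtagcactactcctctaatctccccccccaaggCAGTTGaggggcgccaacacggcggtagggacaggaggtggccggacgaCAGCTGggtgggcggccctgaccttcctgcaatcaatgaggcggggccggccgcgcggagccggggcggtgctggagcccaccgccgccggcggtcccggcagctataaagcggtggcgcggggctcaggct
Sst, chr16:23890845-23891094, strand -: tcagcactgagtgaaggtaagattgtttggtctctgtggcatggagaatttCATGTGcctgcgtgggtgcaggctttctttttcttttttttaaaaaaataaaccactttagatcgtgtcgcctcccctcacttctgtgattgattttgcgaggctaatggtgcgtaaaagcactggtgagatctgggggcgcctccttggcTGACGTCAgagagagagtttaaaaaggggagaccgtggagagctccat
Pyy, chr11:102107833-102108082, strand -: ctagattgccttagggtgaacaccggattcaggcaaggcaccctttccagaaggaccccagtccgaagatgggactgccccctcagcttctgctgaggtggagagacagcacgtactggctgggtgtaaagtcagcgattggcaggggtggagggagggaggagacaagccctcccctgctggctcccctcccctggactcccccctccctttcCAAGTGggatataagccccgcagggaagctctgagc
Gip, chr11:96024295-96024544, strand +: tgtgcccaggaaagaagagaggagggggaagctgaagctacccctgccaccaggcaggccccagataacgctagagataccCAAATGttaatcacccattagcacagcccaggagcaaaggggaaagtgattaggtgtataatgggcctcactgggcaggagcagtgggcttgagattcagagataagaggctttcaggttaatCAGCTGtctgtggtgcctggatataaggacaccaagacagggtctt
The E-box occurred 3 times upstream of Sct, 2 times upstream of Gip 1 time upstream of Sst and 1 time upstream of each start of Pyy. It is a common word: 66.2% of 32851 promoters of this length hold it, beside 11 of the 15 promoters of the 10 genes. Some of these genes have several annotated starts, and 9 of the 10 had it before at least 1 start, Tph1 before none. The full cAMP response element occurred upstream of Sst alone among the 10 genes, at position -48 from its start, and 1.55% of all promoters hold it. In rodents this element is the textbook site through which cAMP induces the somatostatin gene. The matches are descriptions of sequence, and no binding was measured in these data.

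Ghrl and Nts were lowest in pair 2. Ghrl encodes ghrelin, the hunger hormone, which is made mainly in the stomach and by fewer cells of the intestine. Its 2 probes agreed in order, with -0.50 and -0.43 in pair 2 and 0.13 to 0.365 in the other pairs. In pairs 1 to 4 the gene value was 0.14, -0.46, 0.26 and 0.33, and the mean was 0.065 ± 0.36 (SD, n = 4; limma adjusted p = 0.932 over genes). Pair 2 was the only one below 0, at 0.725 of the wild-type level.

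Nts encodes neurotensin, a peptide of cells of the lower small intestine and of neurons, and its 2 probes differed in spread. The probe mMC006868 read 0.37, -0.22, 0.30 and 0.15 over the pairs, averaging 0.15 ± 0.26 (SD, n = 4). The probe mMA032271 read 0.014, -0.13, 0.18 and -0.0265, averaging 0.0098 ± 0.13. Both had their lowest value in pair 2, and neither passed (limma adjusted p = 0.867 and 0.980). Cck encodes cholecystokinin, the I cell hormone that empties the gallbladder. It lay at 0.146, -0.115, 0.013 and -0.048, with the mean closest to 0 of the 10 genes, -0.001 ± 0.11 (SD, n = 4), and an interval of -0.13 to 0.13.

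The 2 enterochromaffin genes had the highest means of the 10. Tph1 encodes tryptophan hydroxylase, the rate-limiting enzyme of serotonin synthesis outside the brain. Its ratios were 0.14, 0.21, 0.0495 and 0.19 in pairs 1 to 4, all above 0, and 7 of 8 arrays were above 0. The mean was 0.14 ± 0.070 (SD, n = 4), or 1.11-fold, with an interval of 0.044 to 0.25 and an unadjusted p = 0.0141 (limma adjusted p = 0.864). It had the smallest range between pairs of the 10 genes, and 67.0% of all genes had a larger one.

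Tac1 encodes the precursor of substance P, which enterochromaffin cells and enteric neurons both make. It stood at 0.0585, 0.20, -0.044 and 0.61 in pairs 1 to 4. Pair 4 was the highest, at 1.52-fold, with 0.57 and 0.645 on its 2 arrays, and pair 3 had arrays of opposite sign, 0.15 and -0.24. The mean was 0.21 ± 0.29 (SD, n = 4; limma adjusted p = 0.867), and 0.072 without pair 4. Among the genes, 2 of 10 had the same sign in all 4 pairs, Sst with all below (8.28% of all genes) and Tph1 with all above (7.31%), together 15.6% of all genes. With 4 pairs the smallest p of an exact sign-flip test is 0.125, which Sst and Tph1 both had.

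The dye-swapped arrays show how well each pair value was measured. In pairs 1, 2 and 4 the 2 arrays had the same sign at 10, 12 and 11 of the 12 probes, and in pair 3 at 6 of 12. The arrays of pair 3 differed most for Tac1, by 0.39. Over all probes the same sign was found at 65.6%, 50.8%, 56.0% and 59.1% in pairs 1 to 4. The median difference between the arrays of a pair ran from 0.072 to 0.13 over the 12 probes, and from 0.097 to 0.12 over all probes. The largest was 0.52, for Sst in pair 1. No probe of the 12 passed for a dye difference (0 of 12, limma adjusted p; 3.6% of all probes passed), and 3 of 12 had an unadjusted p under 0.05, those of Gcg, Sst and 1 of Ghrl, beside 21.9% of all probes.

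**Figure D2:**
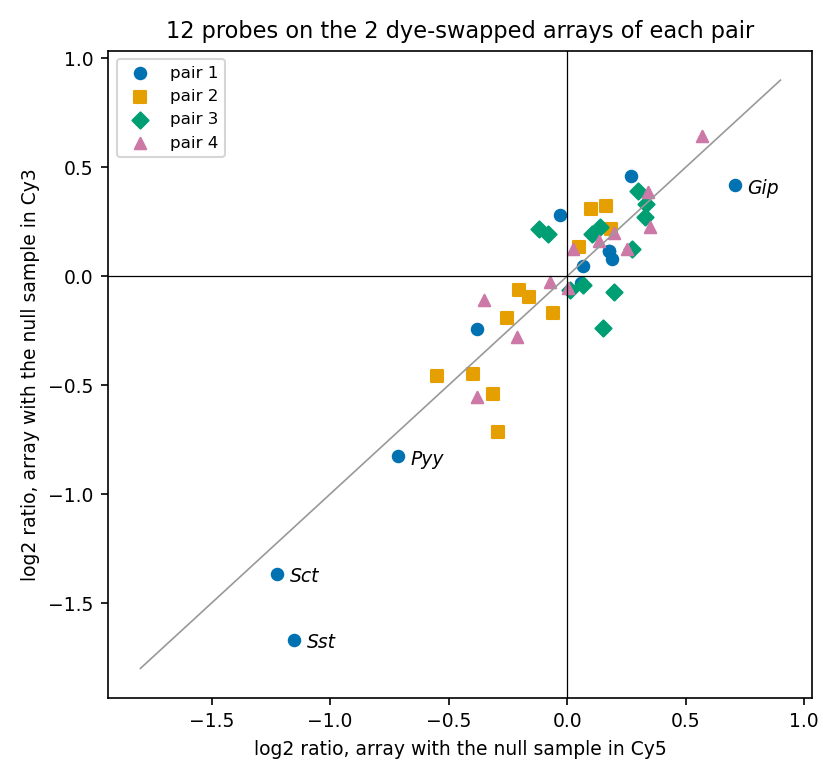
Log2 ratio of each of the 12 probes on the array with the null sample in Cy5 (horizontal axis) and on the array with it in Cy3 (vertical axis), 1 symbol per probe and pair, with the line of equal values. The labelled points of pair 1, Sct, Sst, Pyy and Gip, lie far from 0 on both arrays, and Sst lies below the line at -1.15 and -1.67.

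The test between pairs found 9 of the 12 probes, all but those of Cck and Tph1 and the Nts probe mMA032271. Sct had a moderated F-test adjusted p = 0.000249, Sst 0.00203, Pyy 0.0025 and Gip 0.00827. The 2 Ghrl probes had 0.00306 and 0.00243, the other Nts probe 0.00791, Gcg 0.013 and Tac1 0.0281. The calls depended on the pairs included. Without pair 1 the probes of Sct, Sst, Pyy, Gip, Gcg and Tac1 no longer passed, and 3 of 12 remained, both Ghrl probes and mMC006868 of Nts, beside 4.27% of all probes. The range fell to 0.268 for Sct, 0.134 for Pyy, and 0.479 for both Gip and Sst without pair 1, but it was still 0.379 for Gcg and 0.651 for Tac1, against 0.46 and 0.651 with all pairs. Without pair 2 it was the Ghrl and Nts probes that did not pass, leaving 6 of 12 beside 14.5%. Without pair 4 Tac1 had an adjusted p = 0.355, and without pair 3 Gcg had 0.231, with 8 of 12 passing in each case beside 19.6% and 24.4%.

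**Figure D3:**
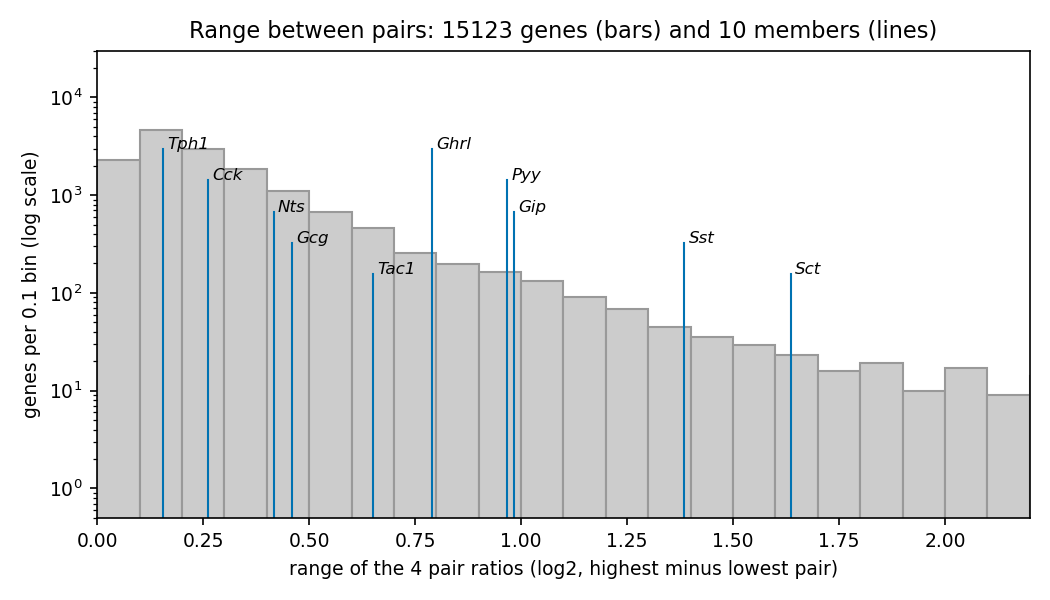
Number of genes (vertical axis, log scale) by the range of their 4 pair ratios, highest minus lowest (horizontal axis, log2, shown up to 2.2), for 15123 genes as bars and the 10 hormone and serotonin genes as lines whose height carries no value. Sct and Sst, with ranges of 1.64 and 1.39, lie far out in the tail, and Tph1 at 0.156 lies among the bulk.

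The order of the genes within a pair was not stable. Sst was the lowest of the 10 in pairs 1, 2 and 4 and next to lowest in pair 3, where Tac1 was lowest. Gip was highest in pair 1 and among the lowest in pair 2, Sct was next to lowest in pair 1 and highest in pairs 2 and 3, and Tac1 was highest in pair 4. In pair 2, 6 of the 10 genes were below 0 and the median was -0.12, against medians of 0.097, 0.060 and 0.069 in pairs 1, 3 and 4. The products of the lower gut did not share a direction in pair 1, with Pyy at -0.77, Gcg at -0.31 and Nts at 0.19. The 2 Nts probes were at 0.37 and 0.014 there, and the second had arrays of opposite sign, 0.059 and -0.031. Products of the upper gut did not share a direction in pair 1 either, with Sct at -1.29, Cck at 0.146 and Gip at 0.56.

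The genes of hormone storage and processing were read for the same pattern. No member of any list below passed over all genes, in either direction (limma, 0 of each list, beside 0% of 15123 genes), so each is given by its counts and medians. Of 11 granins and processing genes, which pack and cleave prohormones, 10 were below 0 in pair 1, with a median of -0.19 there and 0.0775, 0.0005 and -0.048 in pairs 2, 3 and 4. Scg5, the chaperone of the processing enzyme Pcsk2, gave -0.58, 0.22, 0.033 and -0.0015. Chgb, a granin named after its values were seen, gave -0.48, 0.33, 0.26 and -0.10. Cpe, the carboxypeptidase that trims prohormones, was below 0 in all 4 pairs, at -0.21 ± 0.087 (SD, n = 4; unadjusted p = 0.00552, limma adjusted p = 0.727 over genes).

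The transcription factors that make hormone cells had small ratios. Of 18 measured, 7 had a mean above 0 and 11 below, with a median of -0.012 and pair medians of -0.14, -0.015, 0.0033 and 0.034. Neurog3, the factor that commits progenitors to this lineage, was below 0 in all 4 pairs, at -0.22, -0.052, -0.12 and -0.0925 (mean -0.12 ± 0.070, SD, n = 4; unadjusted p = 0.028, limma adjusted p = 0.738). Isl1, which acts later in several hormone cell types, was too, at -0.12 ± 0.086 (limma adjusted p = 0.759). Insm1, a transcriptional repressor that endocrine cell differentiation requires, lay at -0.41 in pair 1, against -0.0445 to 0.015 elsewhere. Foxa1, a forkhead factor of gut epithelium, lay at -0.44 in pair 1, against 0.086 to 0.20 elsewhere.

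Beyond Tph1, the genes that store, move and sense serotonin had no common direction. Of 19, 9 had a mean above 0 and 10 below, with a median of -0.0069. Slc18a2, a vesicular transporter that loads serotonin, was at -0.71 in pair 1 and 0.088, -0.15 and 0.26 in pairs 2, 3 and 4. The transporters Slc18a1 and Slc6a4, named after their values were seen, lay the other way in pair 1, at 0.48 and 0.66. In the other pairs they lay between -0.20 and 0.0875 (moderated F-test adjusted p = 0.00865 and 0.0023 over genes). The receptor Htr2b gave -0.68, 0.20, -1.08 and 0.0955, and Maob, which degrades amines, 0.0955, -0.27, -0.66 and -0.30. Neither of these 2 passed the F-test between pairs (adjusted p = 0.155 and 0.119 over genes), unlike Slc18a2 (0.00102).

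Receptors of the hormones had small ratios. Of 20 measured, 7 had a mean above 0 and 13 below, with a median of -0.014, and 3 of 20 differed between pairs beside 30.9% of all genes. Tacr2, a receptor of the tachykinins that Tac1 encodes, had the lowest mean, -0.16 ± 0.21 (SD, n = 4), with -0.43 in pair 1. Ntsr1, a neurotensin receptor, gave -0.12 ± 0.12, and Npy2r, which responds to peptide YY, ranged from -0.41 in pair 1 to 0.30 in pair 4. Among 14 nutrient and bile acid sensors, by which hormone cells read the gut lumen, 8 had a mean above 0, with a median of 0.013. Ffar2, a receptor of short-chain fatty acids, lay at -1.28 in pair 1 and -0.50 ± 0.55 (SD, n = 4) by mean, and Ffar4, a receptor of long-chain fatty acids, at 1.17 in pair 1 and 0.44 ± 0.49.

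Other peptide hormones also lay on both sides of 0 in pair 1. Of 22 measured, 11 had a mean above 0 and 11 below, and 13 of 22 differed between pairs beside 30.9% of all genes. Penk, the enkephalin precursor, stood at -1.49 in pair 1, against -0.15 to 0.086 elsewhere. Adm, adrenomedullin, stood at 1.18 there, against -0.12 to 0.17. Insl5, an L cell peptide of the lower gut that was named after its values were seen, stood at -1.37, 0.68, -0.0815 and -0.0795 in pairs 1 to 4. Its moderated F-test adjusted p was 0.000586 over genes.

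Lists of markers of other tissues shifted most in single pairs, though some of their genes moved in other pairs too. In pair 1, where Sst, Sct and Pyy were lowest, 13 of 15 enteric neuron markers were below 0, with a median of -0.45, against 0.02, -0.022 and 0.044 in pairs 2, 3 and 4. Stmn2 and Phox2a, of neurons, stood at -0.96 and -0.775 in pair 1, and the glial genes Fabp7 and S100b at -1.18 and -0.53. Of 4 glial genes measured 0 were above 0 in pair 1, with a median of -0.39, and Gfap was near 0 at -0.07. S100b was below 0 in the other pairs too, at -0.40, -0.20 and -0.065 (unadjusted p = 0.0172, limma adjusted p = 0.727 over genes). In the same pair Hoxd10, which marks posterior body levels and belongs to the lower gut list below, was at -3.81, against -0.17 to 0.10 elsewhere. The part of these genes in the low hormone values of pair 1 was not tested. Tac1, which enteric neurons also make, was at 0.0585 in pair 1. In pair 3 all 9 exocrine pancreas markers were above 0, with a median of 1.71, and Pnliprp1 and Ctrb1 at 3.43 and 2.79. In pair 4 these 2 genes were at 1.46 and 1.12, with 7 of the 9 markers above 0 and a median of 0.067. Sst, which the pancreas also makes, lay at -0.0255 in pair 3 and -0.47 in pair 4, and the part of pancreatic RNA in it was not tested.

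Of 8 islet markers 4 had a mean above 0, and their medians lay between -0.037 and 0.031 in the 4 pairs, with Ins2 at 0.67 and Iapp at 0.39 in pair 3. Of 11 markers of mast cells, which also hold Tph1, 6 had a mean above 0 and 5 below, with a median of 0.0093. The mast cell protease Mcpt4 was above 0 in all 4 pairs, at 0.31 ± 0.19 (SD, n = 4; limma adjusted p = 0.727), as was the histamine enzyme Hdc, which hormone cells express too, at 0.23 ± 0.20. Kit and Cma1, a receptor and a protease of these cells named after their values were seen, had means of -0.12 and -0.14. The part of mast cells in the Tph1 ratios was not tested. Stomach markers, relevant to Ghrl, had pair medians of 0.0215, 0.019, 0.057 and 0.0535, with Tff2 at 0.11 ± 0.070 and Atp4a at 0.083 ± 0.069.

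Gut position and epithelial content were read from 3 further lists. Of 7 genes of the upper intestine 6 had a mean above 0, with Fabp1 at 0.81 ± 1.19 and Creb3l3 at 0.53 ± 0.85 (SD, n = 4), and their medians were 0.14, -0.06, 0.069 and 0.11 in pairs 1 to 4. In pair 2 Ghrl and Gip had their lowest values, while Sct, also of the upper gut, was at 0.24. Of 19 genes of the lower gut 7 had a mean above 0 and 12 below, with a median of -0.0575. Their medians were -0.14, -0.0045, -0.0075 and 0.0265 in pairs 1 to 4, and in pair 1 only 4 of the 19 were above 0. Named after their values were seen, Hoxa11 and Hoxd9 stood at -2.61 and -1.93 in pair 1, and Fabp6 and Hoxc9 at 1.00 and 0.75. Among the 19 genes Fgf15, the ileal hormone that signals bile acid return to the liver, stood at 2.52, -0.15, 2.53 and 2.25 in pairs 1 to 4. The 14 gut epithelium markers had medians of 0.077, 0.015, -0.033 and 0.050, but members lay on both sides of 0. Of the 14, 9 differed between pairs, beside 30.9% of all genes. Spint1 and Elf3 were the members farthest from 0 by mean, at -0.51 ± 0.59 and 0.24 ± 0.42.

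**Figure D4:**
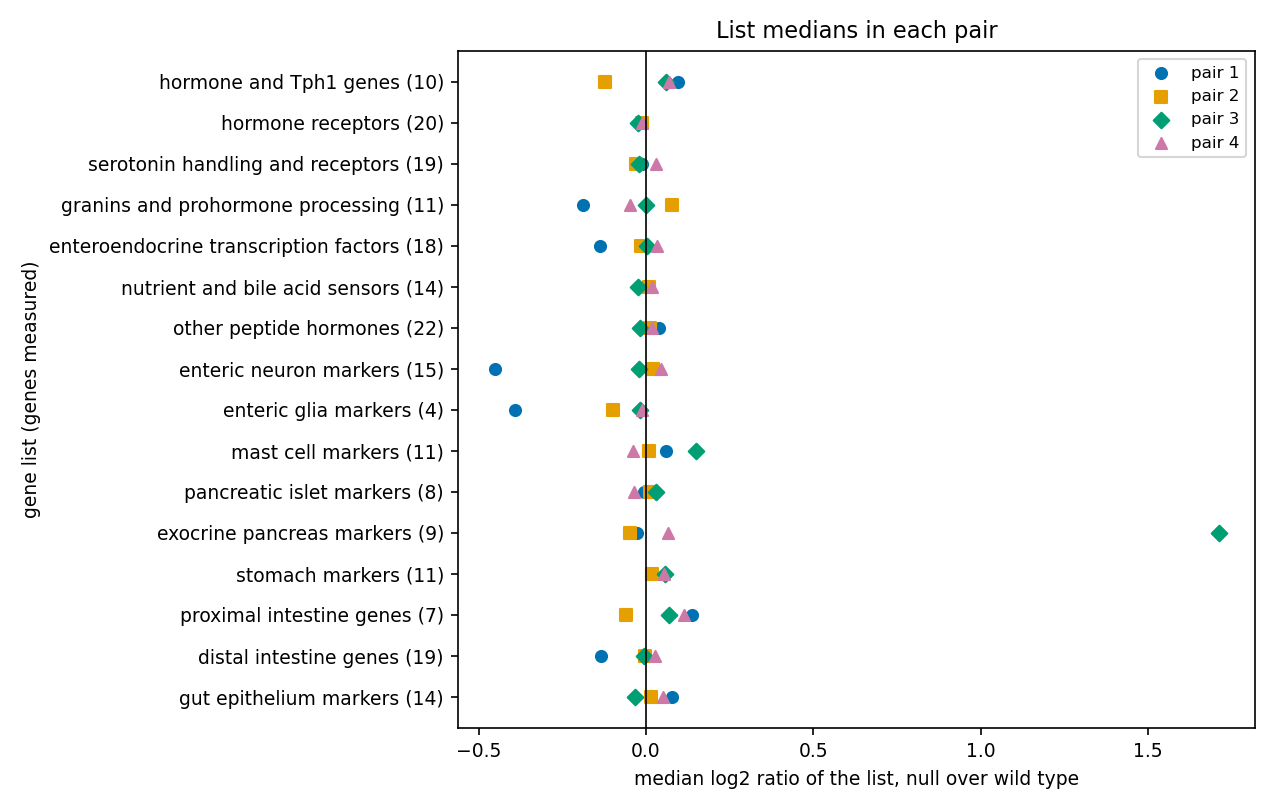
Median log2 ratio of null over wild type (horizontal axis) for the 10 hormone and serotonin genes and 15 further lists (vertical axis, with the number of genes measured), 1 symbol per embryo pair. The exocrine pancreas list at 1.71 in pair 3 and the enteric neuron list at -0.45 in pair 1 stand away from the other pairs, while the hormone gene medians lie between -0.12 and 0.097.

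The genes nearest to Sct and Sst across the 8 arrays were found by the root mean square difference, over 15113 other genes. For Sct they were Myl4 (0.13), Cyp11a1 (0.14) and Tst (0.16), where the median gene differed by 0.69. Each shared the low value of pair 1, at -1.32, -1.15 and -1.35. For Sst they were Klk1b8 (0.22), Postn (0.22) and Sval1 (0.23), where the median gene differed by 0.81. Postn, the matrix protein periostin, gave -1.39, -0.49, -0.12 and -0.49 in pairs 1 to 4, close to Sst in each. Likeness over 4 pairs is a description of these embryos.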

How the data were processed

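Ratios of null over wild-type ileum were measured on 8 two-colour arrays, 2 for each of 4 pairs. The authors deposited 1 log ratio per probe and array. The values were used as deposited log2 ratios, although no source used here gives their base, numerator, background correction or normalization. Array medians lay between -0.002 and 0.002 and array SDs between 0.144 and 0.326. Per the labels, the dyes were swapped within each pair, and arrays of a pair correlated positively over probes (r = 0.312 to 0.783), which is why their signs were left unturned.

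Probe names came from the platform annotation. 22941 probes have a symbol, all matched by gene identifier to RefSeq. Tests ran on 36591 probes, leaving out 1876 of 4 identifier classes without annotated genes. limma 3.58.1 (R 4.3.3) tested the pair means against 0 (two-sided, Benjamini-Hochberg, threshold 0.05), and differences between pairs and dyes on 8 arrays with a coefficient per pair and a dye term. A gene's value is the mean of its probes. Fits were tested on simulated data. The number of arrays limits the precision. p-values treat pairs as independent, although some share parents.

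The members, context lists and tests were chosen with earlier results of these data known. Named were the 10 members, Lgr5, the 2 genes with the largest absolute mean per list (in 3 lists also the 2 with the largest range), and the 3 genes nearest to Sct and to Sst. Alternatives left out pairs, used 1 dye orientation, rescaled or centred arrays, changed the features tested, or used a random block.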

Additional observations from a re-analysis of the deposited data

Results flagged for a closer look

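A pair counted as standing apart when most of the spread of the 4 values lay between it and its closest neighbour, which chance brings about for roughly 1 in 20 such sets. Of 71 sets of 4 values examined, 14 were found. Many of them overlap in genes or were named for a large mean, a large range between pairs or likeness to Sct.

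Pair 1 stood apart for 10 of them. There Sct was at -1.29, against 0.076 to 0.34 elsewhere, and Pyy at -0.77, against 0.0635 to 0.20. The enteric neuron median was -0.45, against -0.022 to 0.044, and the glial gene Fabp7 was at -1.18, against -0.16 to -0.03. Penk was at -1.49, against -0.15 to 0.086, Insm1 at -0.41, against -0.0445 to 0.015, and Hoxd10 at -3.81, against -0.17 to 0.10. Of the 3 genes nearest to Sct, Myl4 was at -1.32, against 0.19 to 0.38, and Cyp11a1 at -1.15, against -0.0055 to 0.20. Ffar4 was above the other pairs, at 1.17, against 0.11 to 0.25.

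In pair 2 the median of the 10 hormone and serotonin genes was -0.12, against 0.060 to 0.097 elsewhere, and Fgf15 was at -0.15, against 2.25 to 2.53. In pair 3 the exocrine pancreas median was 1.71, against -0.049 to 0.067, and Ins2 was at 0.67, against -0.0955 to 0.012.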

How the results depend on the processing

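The count of hormone and serotonin probes called for null against wild type was 0 of 12 under every alternative run. Over all probes the count was 0 in most alternatives. With 8 arrays and a random effect for the pair it was 84, 0.23% of probes, and 12 when a dye term, chosen after seeing the data, was added. Of 100 alternative means of the 10 genes 0 passed. Setting aside the random effect and median centring, 80 remained, of which 66 kept their direction and 14 turned. The lowest adjusted p among all 100 was 0.271, for Sst in the fit with a random effect for the pair. Sst, Gcg, Tac1 and Tph1 each kept their direction in all 8 of their alternatives among those 80. Their means were -0.79 to -0.33, -0.22 to -0.0545, 0.072 to 0.40 and 0.11 to 0.197. For Sst and Tph1 all 4 pairs share a sign, so leaving out pairs could not change the direction of their means. Leaving out 1 pair gave means of -0.32 to 0.22 for Sct, -0.21 to 0.12 for Pyy, -0.05 to 0.037 for Cck, -0.20 to 0.12 for Gip and -0.021 to 0.24 for Ghrl. Without pairs 1 and 3, Sct stood at 0.16, Pyy at 0.14, Nts at -0.057 and Ghrl at -0.069. With only the arrays on which null RNA carried Cy5, Cck stood at 0.028 and Gip at 0.0053. The median of the 10 genes ran from -0.063 to 0.081. In the test between pairs, leaving out 1 pair gave 3 to 8 of the 12 probes (3 without pair 1) and 1564 to 8928 of all probes, with 5293 without pair 2, and 5019 without the dye term. Each ratio sets a null against a wild-type embryo of the same pair, so the tests of null against wild type were paired throughout and could not be run unpaired. Without intensities, signal over background could not limit or filter any value.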
